A study of Mus musculus with 6 samples.

Results

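The 10 core circadian clock genes Arntl, Clock, Per1, Per2, Per3, Cry1, Cry2, Nr1d1, Nr1d2 and Dbp were followed in RNA from mouse prefrontal cortex. They were selected by gene symbol as the textbook core of the clock, and all 10 were found among 54787 gene symbols. The counts of isoforms sharing exons with each gene were summed, which joined 69 isoforms and left out 3 that lie inside introns. The animals were male C57BL/6 mice, aged 5 weeks when dosing began and 30 weeks when sampled, kept under a photoperiod of 12 h. One group, PS_high, received polystyrene nanoparticles (PS NPs) at 50 mg/kg body weight by daily oral gavage for 6 months, and the other, control, received water (0 mg/kg) by the same route. Each group has 3 libraries, made from total RNA after removal of ribosomal RNA. The study looked for RNAs that mark brain injury by these particles. No hour of tissue collection was known for this work. The labels name separate samples and do not say how they relate to single animals, so p-values measure the spread between these samples only.

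In the clock of mammalian cells, the proteins of Arntl (also called Bmal1) and Clock form a dimer that binds E-box sequences and activates transcription of Per, Cry, Nr1d1, Nr1d2 and Dbp. PER and CRY proteins then enter the nucleus and inhibit that dimer, which closes the main loop. The receptors REV-ERBα and REV-ERBβ, products of Nr1d1 and Nr1d2, repress Arntl through response elements that ROR receptors compete for, and DBP activates genes with D-boxes. Messenger RNAs of Arntl and of Dbp or Nr1d1 therefore peak at opposite times of the day in most tissues, the cortex included. Below, Arntl and Clock are called the positive limb and the other 8 genes the negative limb and output.

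Upstream sequences are shown for some of the members in which letters of the known clock elements were found, and for Ciart. The windows of Cry2, Clock and Nr1d2 that held a match are not printed. Windows of 250 bases before RefSeq start sites (GRCm38.p6) were available for 9 of the 10 genes, as 13 windows. They were searched on both strands for the E-box CACGTG, the E′-box CACGTT, the D-box TTATGTAA and the core of the REV-ERB/ROR element, AGGTCA, and no match in the windows shown overlapped another. An E-box was found in 2 of the 13 windows, those of Per1 and Cry1, and in 6.02% of 32851 windows of all genes. Cry1, Cry2 and Nr1d1 had an E′-box (3.85% of all windows), and 3 of the 13 windows, of Clock, Nr1d2 and Per1, had the REV-ERB/ROR core, against 14.0% of all windows. Per3 had the D-box, present in 0.819% of all windows, 2 times, and 0.0183% of all windows had it at least 2 times. Ciart, a repressor of the Arntl and Clock dimer that is not among the 10 genes but returns below, had 3 E-boxes, and 0.0609% of all windows had 3 or more. A match is a description of these letters and not a measured binding site. The windows are printed from 5′ to 3′ on the gene's strand with the matches in capitals.
Per1, chr11:69098699-69098948, plus strand: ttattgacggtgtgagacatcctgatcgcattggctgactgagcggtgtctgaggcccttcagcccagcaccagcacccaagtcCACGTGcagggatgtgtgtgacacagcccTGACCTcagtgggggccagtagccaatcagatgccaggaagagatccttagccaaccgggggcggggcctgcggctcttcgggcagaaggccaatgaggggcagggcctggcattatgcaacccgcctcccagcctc
Cry1, chr10:85185055-85185304, minus strand: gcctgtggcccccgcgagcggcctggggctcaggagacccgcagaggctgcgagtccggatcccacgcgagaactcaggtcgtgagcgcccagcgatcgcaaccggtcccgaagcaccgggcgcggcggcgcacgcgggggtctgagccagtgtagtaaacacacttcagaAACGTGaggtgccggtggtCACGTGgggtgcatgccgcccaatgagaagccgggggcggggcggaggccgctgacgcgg
Nr1d1, chr11:98775378-98775627, minus strand: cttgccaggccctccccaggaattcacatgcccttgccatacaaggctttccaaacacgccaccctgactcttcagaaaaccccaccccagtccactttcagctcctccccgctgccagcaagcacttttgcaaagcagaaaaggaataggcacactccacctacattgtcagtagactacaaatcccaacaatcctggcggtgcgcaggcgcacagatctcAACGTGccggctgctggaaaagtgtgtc
Per3, chr4:151044666-151044915, minus strand: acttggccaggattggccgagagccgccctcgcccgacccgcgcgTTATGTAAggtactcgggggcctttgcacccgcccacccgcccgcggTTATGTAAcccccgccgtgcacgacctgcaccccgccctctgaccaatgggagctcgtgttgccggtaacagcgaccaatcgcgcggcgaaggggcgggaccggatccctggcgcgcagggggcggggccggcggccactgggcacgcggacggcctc
Ciart, chr3:95882229-95882478, minus strand: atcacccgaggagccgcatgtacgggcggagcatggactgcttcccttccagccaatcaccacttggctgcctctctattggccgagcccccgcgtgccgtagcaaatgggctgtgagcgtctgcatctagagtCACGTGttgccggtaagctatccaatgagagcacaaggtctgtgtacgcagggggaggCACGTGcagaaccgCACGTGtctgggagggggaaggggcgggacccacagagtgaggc

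In the Per1 window the E-box begins 166 bases before the start site and a REV-ERB/ROR core, on the other strand, 137 bases before it. The Cry1 window holds its E′-box, on the other strand, 79 bases before the start and its E-box 60 bases before it. The single match of Nr1d1 lies 28 bases before the start. The D-boxes of Per3 stand 205 and 158 bases before its start, and the E-boxes of Ciart 116, 58 and 44 bases before its start. The upstream windows of Arntl and Dbp held none of these letters. A REV-ERB/ROR core begins at base 32 counted from one of the RefSeq start sites of Arntl. It is shown with its flanks because REV-ERB receptors are known to repress Arntl from elements close to its start. Bases after the start are shown for Arntl alone and without a share over all genes, so this match is a description only.
Arntl, chr7:113207530-113207559, plus strand: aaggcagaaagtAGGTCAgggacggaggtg

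Expression of the 10 genes did not pass the test in either direction after 6 months of PS NPs. Their log2 differences, PS_high minus control, ran from Cry2 (-0.18) to Clock (0.18), with 3 above 0 and 7 below. Over all genes tested, 48.5% were above 0. In edgeR's quasi-likelihood test with Benjamini-Hochberg adjustment over 20272 genes, 0 of 10 had an adjusted p under 0.05, against 0.0247% of all genes tested (5 genes). At an unadjusted p under 0.05 the count was again 0 of 10, against 2.73% of all genes, and limma on log2 FPKM called 0 of 10 and 0 of all 20272 genes. DESeq2 also called 0 of 10, against 0.232% of all genes. The smallest unadjusted p of the 10 genes was 0.357 (edgeR). The groups overlapped for all 10 genes, while they did not overlap for 7.09% of all genes. The median log2 difference of the 10 genes was -0.02 against -0.01 over all genes. Their median absolute log2 difference was 0.062 against 0.153. A p above the threshold does not show that the groups are alike, and the standard errors below give the precision. Values in the next paragraphs are CPM, counts scaled to a common library size, and positions are those of the deposited table.

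Arntl (ENSMUSG00000055116, chromosome 7, 113207465 to 113314126, plus strand), the partner that is needed for the rhythm in most tissues, was at 43.1, 41.6 and 32.5 CPM in control replicates 1 to 3 and at 34.5, 41.1 and 28.4 CPM in PS_high replicates 1 to 3. Replicate 3 was the lowest of each group, and the groups overlapped. The log2 difference was -0.17 (SE 0.20). Arntl shares 2394 bases with Gm45355 on the opposite strand (mean 1.44 FPKM).

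Clock (ENSMUSG00000029238, chromosome 5, 76209255 to 76304792, minus strand), the partner of Arntl in the dimer, had the highest ratio between libraries, with 88.6, 176 and 77.1 CPM in control and 130, 77.2 and 181 CPM in PS_high. Control 2 and PS_high 3 were more than double the lowest library, and highest over lowest was 2.35. The log2 difference was 0.18 (SE 0.40). The SD of log2 CPM within groups was 0.63 for Clock, above that of 86.3% of all genes (median 0.319). On the scale of FPKM, the deposited level normalised for isoform length as well as library size, Clock spread less. It was at 20.2, 24.2 and 16.2 FPKM in control and 18.9, 18.6 and 21.7 FPKM in PS_high. Clock shares 4176 bases with Gm43658 (mean 2.73 FPKM) and 459 bases with Ube2n-ps1 (mean 10.1 FPKM), both on the same strand.

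Per1 (ENSMUSG00000020893, chromosome 11, 69095217 to 69110679, plus strand), a repressor that is also induced quickly by light, stress and neuronal activity, was at 33.7, 42.2 and 52.9 CPM in control and 30.0, 50.8 and 45.2 CPM in PS_high. Each group spanned almost the whole range, and the log2 difference was -0.03 (SE 0.25). Per2 (ENSMUSG00000055866, chromosome 1, 91415982 to 91459324, minus strand), the repressor whose loss shortens and then abolishes the rhythm, was the steadiest of the 10 genes, with 27.1, 26.4 and 31.3 CPM in control and 26.0, 30.3 and 26.9 CPM in PS_high. Its highest library was 1.20 times its lowest, and its SD of log2 CPM within groups of 0.12 was above that of only 8.37% of all genes. The log2 difference of Per2 was -0.03 (SE 0.16).

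Per3 (ENSMUSG00000028957, chromosome 4, 151002241 to 151044665, minus strand), the family member with the mildest effect on the rhythm when lost, was at 114, 130 and 130 CPM in control and 124, 148 and 99.9 CPM in PS_high. Both the highest and the lowest library belonged to PS_high, with a log2 difference of -0.01 (SE 0.17). Reads of Per3 are uncertain because Camta1, on the same strand and at a mean of 18.4 FPKM, spans all 42425 bases of it.

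Cry1 (ENSMUSG00000020038, chromosome 10, 85131700 to 85185064, minus strand), the stronger of the 2 cryptochrome repressors, was at 23.1, 19.2 and 24.5 CPM in control and 21.9, 23.2 and 21.2 CPM in PS_high. All of PS_high lay inside the range of control, with a log2 difference of -0.01 (SE 0.17). Cry2 (ENSMUSG00000068742, chromosome 2, 92403646 to 92434043, minus strand), the other cryptochrome, was at 118, 111 and 130 CPM in control and 96.4, 132 and 89.3 CPM in PS_high. PS_high 1 and 3 were below every control library and PS_high 2 was above them all. The log2 difference of Cry2 was -0.18 (SE 0.18). Cry2 shares 23417 bases with D930015M05Rik on the opposite strand (mean 1.65 FPKM).

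Nr1d1 (ENSMUSG00000020889, chromosome 11, 98767932 to 98775333, minus strand) was at 29.3, 34.8 and 42.6 CPM in control and 27.3, 49.3 and 34.5 CPM in PS_high. PS_high held both the highest and the lowest library, and the log2 difference was 0.06 (SE 0.25). Nr1d1 shares 1075 bases with Thra on the opposite strand (mean 63.2 FPKM), and whether reads were counted by strand is not stated in the labels. Nr1d2 (ENSMUSG00000021775, chromosome 14, 18204054 to 18239127, minus strand) was at 317, 245 and 321 CPM in control and 351, 229 and 253 CPM in PS_high, again with both extremes in PS_high. Its log2 difference was -0.08 (SE 0.20).

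Dbp (ENSMUSG00000059824, chromosome 7, 45705088 to 45710203, plus strand), the output gene with one of the widest daily swings in most tissues, was at 10.1, 11.8 and 18.4 CPM in control and 15.2, 13.4 and 13.5 CPM in PS_high. All of PS_high lay within the range of control, where replicate 3 was 1.83 times replicate 1. The log2 difference of Dbp was 0.07 (SE 0.26). Dbp shares 737 bases with Sphk2 on the opposite strand (mean 2.89 FPKM).

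**Figure D1:**
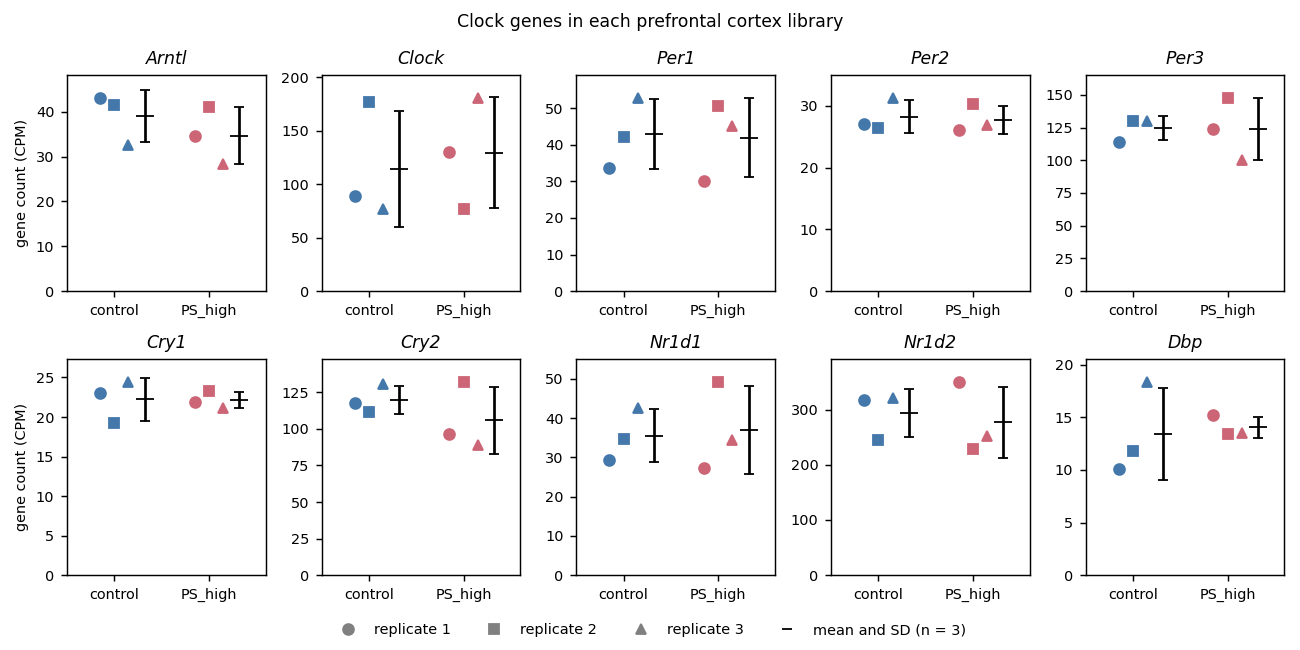
Gene counts scaled to library size (CPM, vertical axis from 0) of the 10 clock genes in the 3 control and 3 PS_high libraries, with the marker shape giving the replicate and the bars the mean and SD of each group (n = 3). The groups overlap in every panel, and Clock has the highest ratio between libraries, from 77.1 to 181 CPM.

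Ordered by FPKM, which sets genes of different length on one scale, 3 tiers could be told apart. Cry2 (24.5 ± 3.49 FPKM, SD, n = 6), Nr1d2 (24.4 ± 3.29) and Clock (20.0 ± 2.78) were highest. Cry2 exceeded Nr1d2 in 2 of 6 libraries and Nr1d2 exceeded Clock in 5, so their order was not the same in every library. Clock was above the next gene, Per3, in 6 of 6 libraries. Per3 (10.9 ± 0.866), Nr1d1 (10.2 ± 2.58), Arntl (9.997 ± 1.65), Dbp (7.20 ± 2.27), Cry1 (6.03 ± 0.675) and Per1 (5.87 ± 1.26) followed. From Per3 down to Cry1, each exceeded its next lower neighbour in 2 to 5 libraries. Per2 was lowest, at 3.32 ± 0.376 FPKM, below Per1 in all 6 libraries.

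The profile of the 10 genes differed between libraries of the same group. In control 3 all 8 genes of the negative limb and output were above their own median over the libraries, and 4 of the 8 had their highest value there. PS_high 2 held the highest value of 3 of the 8 and was above the median for 6. These counts were not made over all genes, so a profile particular to the clock genes is not shown. The log2 ratio of Arntl to Dbp was 2.09, 1.81 and 0.82 in control and 1.18, 1.61 and 1.07 in PS_high. Without a known hour of collection, this ratio cannot be read as a phase of the loop. Control thus spanned both ends of the range that these 6 libraries cover.

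Sums of some other transcripts were also highest in control 3. The summed level of 13 immediate early genes was 85.0, 35.9 and 100.1 FPKM in control and 52.6, 76.5 and 46.1 FPKM in PS_high. The sum of 10 glucocorticoid response genes was 83.8, 119 and 162 FPKM in control and 102, 123 and 127 FPKM in PS_high. Hemoglobin genes and Alas2, markers of blood, summed to 233, 152 and 383 FPKM in control and 89.3, 256 and 132 FPKM in PS_high. Control 3 was highest on all 3 sums, and also on those of cortical excitatory neurons (250 FPKM) and oligodendrocytes (224 FPKM). It was lowest on the sum of astrocyte markers (106 FPKM). On those of striatal neurons, choroid plexus, meninges and endothelium it was neither highest nor lowest. The part of these transcripts in the profile of the clock genes was not tested.

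**Figure D2:**
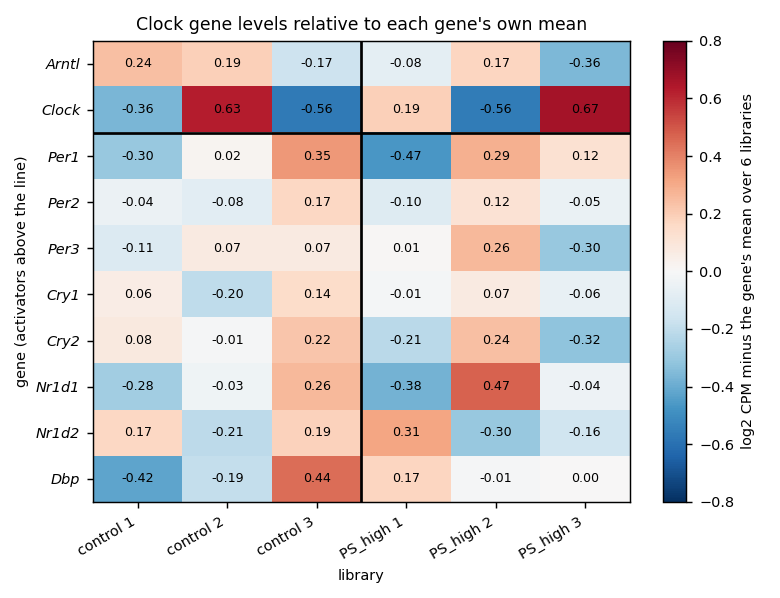
Level of each clock gene in each library as log2 CPM minus the gene's mean over the 6 libraries (colour and printed value), with the positive limb above the horizontal line and control left of the vertical line. All 8 negative limb and output genes are above their mean in control 3, while Clock ranges from -0.56 to 0.67.

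The next comparison asked whether genes of the positive limb were low in the libraries where those of the negative limb were high. Pearson's r of log2 CPM over the 6 libraries was computed for all 45 pairs of the 10 genes, with exact two-sided permutation tests. Of the 16 pairs between the limbs, 13 had a negative r, with a median of -0.23. All 8 pairs of Clock were negative (median -0.51), and 5 of 8 were for Arntl (median -0.07). With annotated isoforms alone this turned round, with 4 of 8 negative for Clock (median 0.01) and 8 of 8 for Arntl (median -0.60). With Clock isoforms of up to 7000 bases, a limit chosen after the values were seen, 5 of 8 pairs of Clock were negative. Over all genes of at least 5 CPM, 52.5% had a negative r with Clock and 52.3% with Arntl. Of the 28 pairs within the negative limb and output, 23 were positive, with a median of 0.41. Pairs that share a gene are not independent of each other, so neither the 16 nor the 28 pairs are separate observations. Only 3 of the 45 pairs reached an unadjusted p of at most 0.05, and 0 did after Benjamini-Hochberg adjustment.

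Clock and Cry1 gave the smallest p of the 45 pairs, with r = -0.90 (exact permutation p = 0.00694, adjusted 0.281; Spearman's rho -0.94, p = 0.0167). Without control 2 and PS_high 3, the libraries farthest from the median of Clock, r was -0.88. Clock and Cry2 had r = -0.83 (exact permutation p = 0.0528; rho -0.89, p = 0.0333), and Clock and Per2 had r = -0.78 (exact permutation p = 0.0847). These values move with the isoforms of Clock described below: with isoforms of up to 7000 bases alone, r was -0.49 with Cry1, 0.14 with Cry2 and -0.46 with Per2.

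Arntl and Dbp, which peak at opposite times in most tissues, had r = -0.64 (exact permutation p = 0.165, adjusted 0.661; rho -0.83, p = 0.0583). Without control 3 and PS_high 3, the libraries farthest from the median of Arntl, r was -0.86. Centred on each group, r was -0.62, but within control alone it was -0.99 and within PS_high alone -0.03 (3 libraries each). Such values from 3 libraries also differed between the groups for other pairs, as for Arntl and Clock (0.53 within control, -0.99 within PS_high). For Clock and Cry1 they were alike (-0.997 and -0.999). With so few libraries they do not show a difference between the groups. Over the 6 libraries r was -0.22 on log2 FPKM, -0.31 with values also centred on the replicate number, and -0.04 with annotated isoforms alone. Arntl and Nr1d1, a pair with the same known opposition, had r = 0.03 (exact permutation p = 0.95). That value was -0.83 with annotated isoforms alone and 0.78 with the replicate number centred out, so it has no settled direction. Arntl and Clock had r = -0.33 (exact permutation p = 0.512).

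Among the targets of the dimer, Per1 and Nr1d1 had r = 0.92 (exact permutation p = 0.0125, adjusted 0.281; rho 0.89, p = 0.0333), and 0.83 without the 2 libraries farthest from the median of Per1. With annotated isoforms alone this r was -0.04. Of 12913 genes with a mean of at least 5 CPM, 316 (2.45%) had r of at least 0.9 with Per1. Per2 and Nr1d1 had r = 0.86 (exact permutation p = 0.0458; rho 0.71, p = 0.136), which fell to 0.31 without control 3 and PS_high 2 and so rests on those libraries. Per1 and Per2 had r = 0.79 (exact permutation p = 0.0819; rho 0.83, p = 0.0583), but -0.46 with annotated isoforms alone. Between Nr1d1 and its paralog Nr1d2, r was -0.61 (exact permutation p = 0.222; rho -0.66, p = 0.175), and 0.12 without PS_high 1 and 2.

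**Figure D3:**
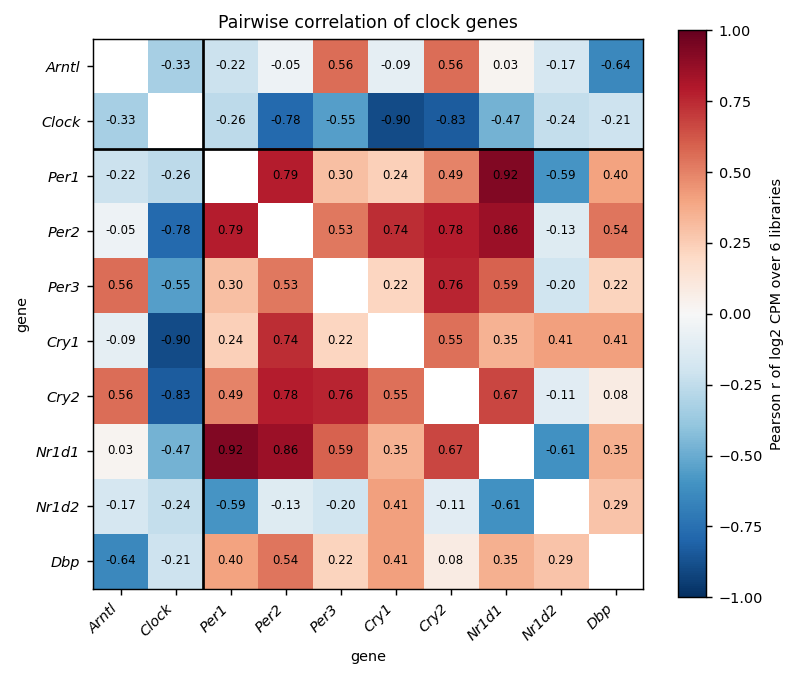
Pearson's r of log2 CPM over the 6 libraries for each pair of clock genes (colour and printed value), with heavy lines between the positive limb and the rest. The row of Clock is negative throughout, to -0.90 with Cry1, and the highest value is 0.92 for Per1 and Nr1d1.

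**Figure D4:**
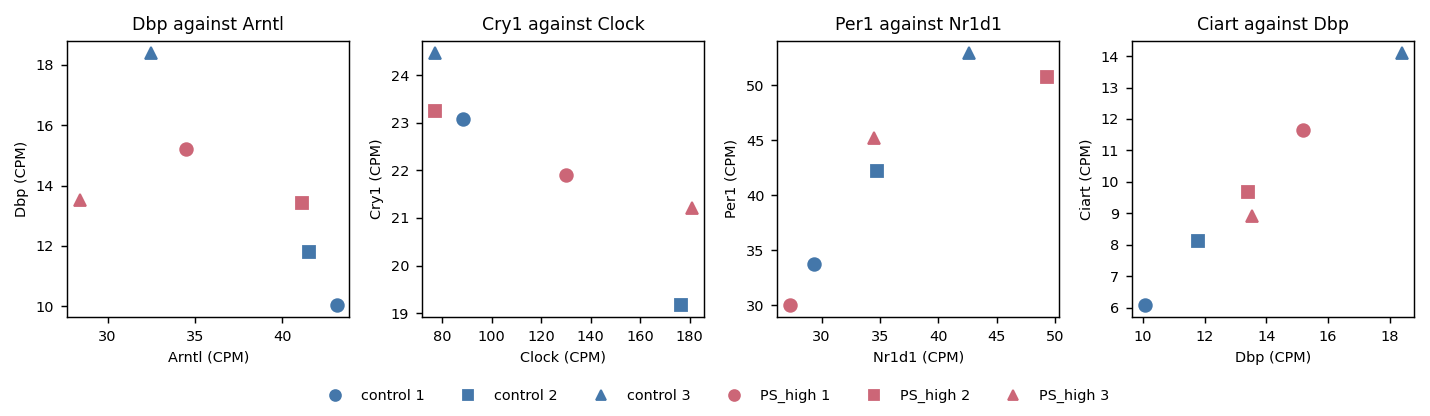
Counts scaled to library size (CPM) of 4 pairs of genes, 1 point per library, with colour for group and shape for replicate. Dbp and Ciart rise together (r = 0.99) and Cry1 falls as Clock rises (r = -0.90). PS_high lies within the range of control for Dbp and for Ciart. For Arntl and Dbp, r was -0.64 over the 6 libraries, with -0.99 within control and -0.03 within PS_high. With n = 3 each, the values within groups do not show a difference between the groups.

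Among 12913 genes with a mean of at least 5 CPM, the one most like Dbp over the 6 libraries was Ciart, itself a clock gene with E-boxes (r = 0.99). It was at 6.10, 8.12 and 14.1 CPM in control and 11.6, 9.69 and 8.93 CPM in PS_high. Both genes were lowest in control 1 and highest in control 3. The next were Scp2 (r = 0.99), Fam214a (0.98), Zfp687 (0.98) and Gm23444 (0.97), and 38 genes in all reached 0.9. Other genes that the dimer is known to activate were spread widely in this order. Usp2 ranked 264 (r = 0.77) and Bhlhe40 317 (r = 0.75), but Per1 ranked 2149, Nr1d1 2536, Cry2 5299, Bhlhe41 5983 and Tef 9458 (r = -0.25). With annotated isoforms alone, r between Dbp and Ciart was -0.13. The 5 genes most like Arntl were Gm43793, Pknox2, Paqr9, Wnk1 and Slc6a8, with r between 0.97 and 0.98. These are descriptions over 6 libraries whose total counts and marker sums differ, as given below. The part of those differences in these correlations was not tested.

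Of 20 further genes of the clock, 19 were expressed enough to be tested and none passed (edgeR, 0 at an unadjusted p under 0.05, and 0 in DESeq2). Their log2 differences were above 0 for 15 and below 0 for 4, with a median of 0.09, while 48.5% of all genes were above 0. The lowest were Bhlhe41 (-0.56, SE 0.30), a repressor that competes for E-boxes, Csnk1d (-0.20, SE 0.18), a kinase of PER proteins, and Bhlhe40 (-0.13, SE 0.18). Bhlhe41 was at 35.9, 42.2 and 44.2 CPM in control and 28.3, 38.5 and 16.5 CPM in PS_high, where PS_high 2 overlapped control. The highest were Prkaa2 (0.32, SE 0.28), a subunit of the energy sensor AMPK, Nfil3 (0.24, SE 1.06), which represses at D-boxes, and Rora (0.24, SE 0.41), an activator of Arntl. Counts of Nfil3 were 484, 307 and 5 in control, against 211, 307 and 364 in PS_high, so control 3 stood almost without it. The groups did not overlap for 1 of the 19, Btrc, which targets PER proteins for degradation, against 7.09% of all genes. It was at 172, 177 and 162 CPM in control and 183, 204 and 184 CPM in PS_high (log2 difference 0.16, SE 0.12, edgeR unadjusted p = 0.243).

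The division of reads between isoforms was steady for some clock genes and changed from library to library for others. The leading isoform held 99.8% to 99.9% of the counts of Per2 and 91.4% to 98.1% of those of Cry1 in every library. That of Clock held 1.78% to 48.5%, and that of Per1 15.9% to 78.6%. Of 49 isoforms of the 10 genes with at least 100 counts in some library, 14 had at most 5 in another. This count was not made over all isoforms, so a trait particular to the clock genes is not shown. Annotated isoforms held all counts of Per2 and Cry1, 79.8% of those of Arntl, 42.3% of Clock, 20.2% of Per1, 5.37% of Per3 and 3.25% of Nr1d2. Of the 69 isoforms, 46 had a mean of at least 0.5 FPKM and were tested, and 0 of these passed in edgeR (0.00433% of all 69333 isoforms did), and 5 had an unadjusted p under 0.05 (3.58% of all). DESeq2 called 1, against 1.49% of all isoforms.

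The isoform called by DESeq2 was the assembled Cry2 isoform MSTRG.22056.1, 4076 bases long, which control carried at counts of 1170, 2925 and 2690 and PS_high at 406, 343 and 239. The log2 difference was -2.64 (SE 0.46, edgeR adjusted p = 0.668, DESeq2 adjusted p = 1.02e-06). The annotated Cry2 isoform with most counts, ENSMUST00000090559, reached counts of 2483, 620 and 2440 in control against 949, 3417 and 2521 in PS_high. Its groups overlapped.

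For Clock the spread lay in 3 isoforms longer than 7000 bases. Together their counts were 290, 4289 and 530 in control, against 2697, 494 and 5996 in PS_high. The 7 shorter isoforms summed to 4064, 4561 and 3700 in control, against 3371, 2812 and 3054 in PS_high, a ratio of highest to lowest of 1.49 on the CPM scale. The longest, the assembled MSTRG.30151.1 of 10287 bases, had most counts of the gene. The annotated ENSMUST00000202651 was listed with 3324 counts in PS_high 3 and 0 in the other 5 libraries.

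For Per1 the assembled isoform MSTRG.6195.7 was counted 0, 1406 and 1806 times in control and 0 times in every PS_high library. It did not pass (edgeR unadjusted p = 0.0473, edgeR adjusted p = 0.99998, DESeq2 adjusted p = 0.0826), and control 1 lacked it as well. The isoform of Per1 with most counts, MSTRG.6195.9, was counted 579, 348 and 461 times in control, against 274, 1707 and 1565 times in PS_high. For Nr1d1 the share of counts in the annotated coding isoform ENSMUST00000064941 was 37.2%, 42.8% and 46.2% in control and 52.98%, 55.97% and 57.6% in PS_high. These shares did not overlap, were noticed after the values were seen and were not tested. For the share of the leading isoform the groups did not overlap in 2 of the 10 genes, Nr1d1 and Per3, and in 9.28% of 12854 genes with at least 2 isoforms. For Dbp, annotated isoforms with a retained intron held 69.4%, 60.7% and 27.8% of counts in control and 29.3%, 25.96% and 28.95% in PS_high, so control 3 resembled PS_high.

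The remaining genes had these leading isoforms. Arntl had ENSMUST00000211770, counted 1090, 1181 and 918 times in control, against 990, 0 and 1030 in PS_high, so PS_high 2 was listed without it. Cry1 had ENSMUST00000020227, between 920 and 1308 counts in every library, and Per2 had ENSMUST00000069620, between 1212 and 1715. Per3 and Nr1d2 were led by the assembled MSTRG.28684.10 (1183 to 2478 counts) and MSTRG.11533.2 (2233 to 10678 counts).

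**Figure D5:**
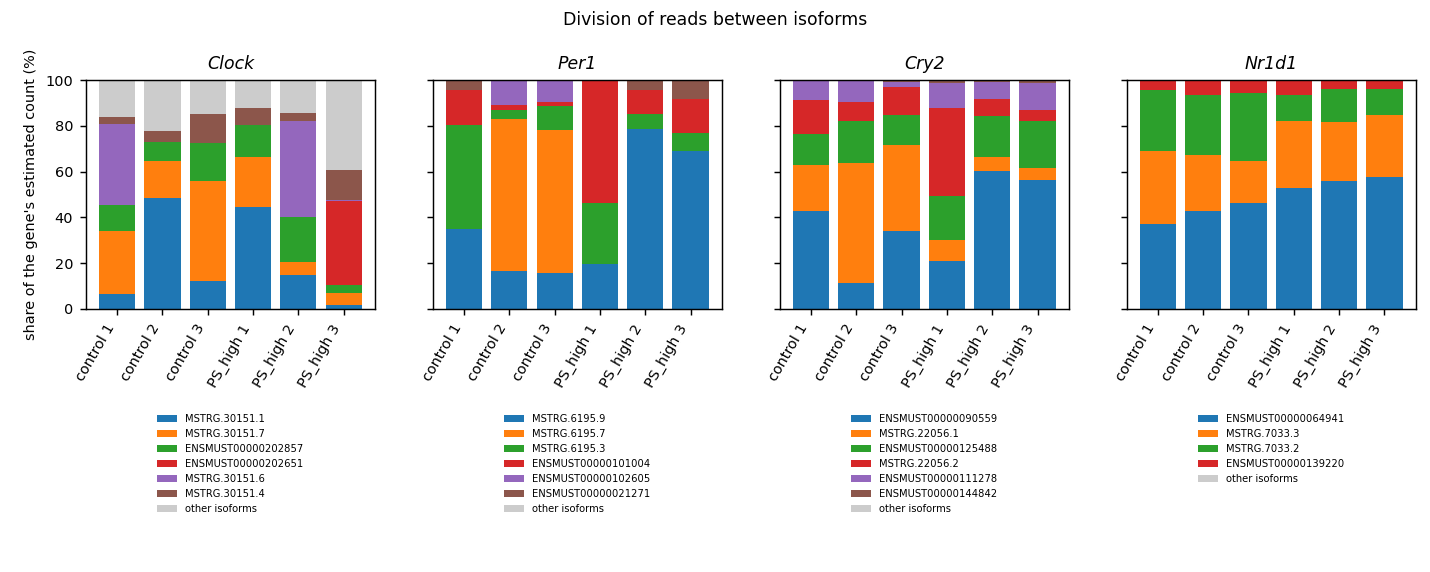
Share of each gene's estimated count (percent, vertical axis from 0 to 100) given to its isoforms in each library for Clock, Per1, Cry2 and Nr1d1, with 1 colour per isoform. The division differs between libraries of one group, and for Nr1d1 the lowest segment is 37.2% to 46.2% in control and 52.98% to 57.6% in PS_high.

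Circular RNAs, made when a downstream splice site joins an upstream one, were counted for 5 of the 10 genes, while 22.1% of all tested genes had any. The 5 genes had 34 back-splice reads over the 6 libraries, in 9 circles. Clock had 20 reads in 4 circles, Cry1 had 7, Nr1d2 had 5, and Arntl and Per3 had 1 each. The 3 circles seen in at least 3 libraries did not pass in edgeR (adjusted p = 0.976 for each), against 0.0305% of all 3275 circles. At an unadjusted p under 0.05 the count was also 0 of 3, against 4.95% of all circles.

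The most frequent was mmu_circ_0012786 of Clock, from 5 exons (chromosome 5, 76262675 to 76274043 in the table). It had 1, 0 and 2 back-splice reads in control and 4, 4 and 3 in PS_high. The groups did not overlap, as for 11% of all circles, and the log2 difference was 1.95 (SE 1.43, edgeR unadjusted p = 0.179). The circle of Cry1, mmu_circ_0002512 from 9 exons, had 0, 0 and 4 reads in control and 1, 0 and 2 in PS_high. No difference in these circles was detectable at this depth. The others among the 5 with most reads were circRNA8563 of Nr1d2 with 4 and circRNA6233 and circRNA13232 of Clock with 3 and 2.

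As to the libraries as a whole, total estimated counts were 53344395 to 66004386, of which 77.0% to 82.0% fell in the summed genes. Markers of cortex were present, since all 6 genes of cortical excitatory neurons were expressed, at a sum of 145 to 250 FPKM. Of 6 markers of the suprachiasmatic nucleus, the central clock, Nms, Six6 and Lhx1 were at 0 counts in every library and 1 was expressed enough to be tested. Markers of choroid plexus summed to 6.05, 239 and 122 FPKM in control and 10.7, 470 and 299 FPKM in PS_high. Those of striatal neurons summed to 21.2 to 59.02 FPKM over the libraries and those of meninges to 10.4 to 23.9 FPKM. Their part in the results was not tested. Log2 differences were below 0 for 12 of 13 immediate early genes, 6 of 10 glucocorticoid response genes, 5 of 5 blood and 4 of 4 oligodendrocyte markers, and above 0 for 6 of 6 choroid plexus and 5 of 5 tested meningeal markers. Over all genes tested, 48.5% of log2 differences were above 0. Of all these listed genes 0 passed in edgeR after adjustment, against 0.0247% of all genes. An unadjusted p under 0.05 (edgeR) was reached by 3 of 13 immediate early genes, 1 of 10 glucocorticoid response genes and 1 of 5 tested meningeal markers. The share of all genes at that bound was 2.73%. Fewer cells of a type and less RNA per cell cannot be told apart in such tissue samples.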

How the data were processed

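Linear RNA and circular RNA were measured in 6 libraries, 3 control and 3 PS_high. Per the labels' protocols, ribosomal RNA was depleted and a stranded kit was used; HISAT2, StringTie and TopHat are listed in the submitters' processing notes, while their versions and order and the genome build were unknown here. The authors deposited FPKM and an estimated count per isoform, whole numbers that divide shared reads between isoforms. They also deposited a count of back-splice reads and a signal (SRPBM) per circular RNA.

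From these, estimated counts of isoforms sharing exons with a gene (annotated or assembled) were summed per symbol; isoforms inside introns held 15.0% to 19.1% of the counts. Features averaging 0.5 FPKM or more were tested with edgeR 4.0.16 (TMM, quasi-likelihood, two-sided, Benjamini-Hochberg over all features; R 4.3.3), circles when seen in at least 3 libraries with library totals implied by SRPBM. SE is the log2 difference divided by the root of F. DESeq2 1.42.0 and limma 3.58.1 were alternatives. Correlations used log2(CPM + 0.1), with all 720 orderings enumerated. The code was tested on simulated data.

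The members and lists were chosen with earlier results of these data known. Named were all 10 genes, the 3 highest and 3 lowest further clock genes, the 5 genes most like Dbp and Arntl, the leading isoform of each gene and the 5 circles with most reads; other isoforms were named after their values were seen. Whether replicate numbers pair the samples was not known, so no block was used in the main test and a block was an alternative.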

Additional observations from a re-analysis of the deposited data

How the results depend on the processing

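The count of clock genes past the threshold was 0 under all 14 alternatives, as was that of the further clock genes and, under 9 alternatives, of circles. For isoforms it was 0 except in DESeq2, which called 1 (the Cry2 isoform above); the cause was not tested. Over 140 alternatives of the 10 genes the sign was kept in 107 and turned in 33, with adjusted p between 0.996 and 1. Arntl kept its sign under all 14 of its alternatives.

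With annotated isoforms only, log2 differences turned to 0.91 for Per1, 1.28 for Per3, 0.41 for Cry2, 2.72 for Nr1d2, -0.16 for Dbp, 1.001 for Bhlhe41 and 0.35 for Csnk1d, and r to -0.042 for Per1 and Nr1d1, -0.46 for Per1 and Per2 and -0.13 for Dbp and Ciart. With the isoform of highest mean only they turned to -0.52 for Clock, 1.52 for Per1, 0.51 for Cry2, 0.72 for Nr1d2, 0.15 for Bhlhe40 and -0.43 for Nfil3. With limma on log2 FPKM they turned to -0.021 for Clock, 0.055 for Per1, 0.079 for Cry1, -0.023 for Nr1d1, -0.045 for Dbp and -0.023 for Rora, and with isoforms inside introns to 0.043 for Cry1. With Clock isoforms up to 7000 bases, added after seeing the data, r of Clock and Cry2 turned to 0.14. The cause was not tested.

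Leaving out each library in turn gave -0.32 to -0.046 for Arntl, -0.38 to -0.068 for Cry2, -0.88 to -0.29 for Bhlhe41, -0.31 to -0.030 for Csnk1d and 0.091 to 0.53 for Prkaa2, which kept their signs. It gave -0.14 to 0.64 for Clock, -0.20 to 0.17 for Per1, -0.10 to 0.054 for Per2, -0.17 to 0.13 for Per3, -0.10 to 0.066 for Cry1, -0.21 to 0.24 for Nr1d1, -0.28 to 0.026 for Nr1d2, -0.10 to 0.36 for Dbp, -0.25 to 0.080 for Bhlhe40, -0.052 to 0.55 for Rora and -0.34 to 1.03 for Nfil3. Negative pairs between the limbs numbered 10 to 15 of 16.

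Same-numbered samples had correlations of deviations of 0.17, 0.099 and 0.059, so not all were over 0.1; every sample correlated best with its own number, a hint from the data and not the design. With the replicate number as a block, 0 clock genes, 0 isoforms and 0 circles passed, 10 of 16 pairs were negative, and calls over all genes went from 5 to 0. Leaving out PS_high 1 raised calls over all genes to 17, and DESeq2 made 47.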
